A study of Mus musculus with 16 samples.

Results

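Axon guidance cues and their receptors were examined in cardiomyocytes (CMs) sorted from mouse hearts by how much integrin α6 (ITGA6, also CD49f) they carried at the surface. The genes were those whose name on the microarray places them among the semaphorins of classes 3 to 7, the plexins, the Eph receptors, the ephrins, the Slits and Robos, or the netrins and Unc5 receptors. This gave 66 of the 27372 gene names on the microarray, namely 20 semaphorins, 9 plexins, 14 Eph receptors, 8 ephrins, 7 Slits and Robos, and 8 netrins and Unc5 receptors. For each gene the probe with the highest mean log2 signal over all microarrays was used.

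Guidance cues were first described as molecules that attract or repel growing axons. Semaphorins are mostly read by plexins, ephrins by Eph receptors, Slits by Robos, and netrins by DCC and the Unc5 receptors. In the heart the same families act outside the nervous system as well, for example in the growth of vessels, in the septation of the outflow tract, and at contacts between cells.

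The 4 groups of the study were compared, each with 4 samples on microarrays of their own. At embryonic day (E) 15.5, cells that carried ERBB-2 were sorted into ERBB-2+/ITGA6low (EL) and ERBB-2+/ITGA6high (EH) CMs. At postnatal day (P) 2, a magnetic depletion removed non-myocytes before the remaining cells were sorted into ITGA6low (PL) and ITGA6high (PH) CMs. All mice were CD1 wild-type, and each experiment pooled 20 to 30 embryonic or 15 neonatal hearts. The E15.5 samples are numbered 2, 3, 6 and 8, and the P2 samples 2, 3, 4 and 5. Values are normalized signals on the linear scale unless log2 is named, and are listed in the order of the sample numbers. A gene was taken as detected in a group when the scanner software marked its probe as well above background on all 4 microarrays. Genes were called when the Benjamini-Hochberg adjusted p of limma, over all 55681 probes, was at most 0.05 and the change at least 3-fold. Where no probe signal of the dimmer group stood well above background, only a lower bound of the fold-change is given, as "at least", computed against each microarray's lowest signal well above background. Values named as fitted, and values under an alternative processing, can rest on signals near background and are then no exact fold-change. An exact permutation test of 4 against 4 microarrays cannot give a p below 0.0286.

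The labelled cell types were checked against marker genes. All 8 genes of the pan-cardiomyocyte list, among them Tnnt2, Myh6 and Actc1, were well above background on all 16 microarrays. The 6 genes of the atrial list, among them Nppa, Sln and Nr2f2, were all called higher in EH than in EL and all called higher in PH than in PL. Of the 4 genes of the ventricular list, 3 were called lower in EH and 4 in PH. The summed signal of the atrial list was 21572, 19719.5, 25261 and 24090 for EL and 439431, 426163, 419990 and 434712 for EH, and 11433, 24298, 51042 and 15693 for PL and 625517, 665244, 728502 and 718871 for PH, with Nppa as its most abundant gene, which for each list is the gene of the highest mean signal over the 16 microarrays, although signals of different probes are not on one scale. The ventricular sum, with Myl2 as most abundant gene, was 456777, 477728, 456789 and 457087 for EL, 140389, 174494, 168642 and 224901 for EH, 329856, 363679, 325199 and 330716 for PL, and 30829.6, 22463, 34593 and 30537 for PH. Every difference between the fractions given here therefore ran alongside a difference in chamber markers, and the part of these in the results was not tested. In such bulk samples, fewer cells of a type and less RNA per cell cannot be told apart.

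Some microarrays stood apart. Of 12 endothelial and endocardial marker genes, 11 were well above background on EH 2, EH 6 and EH 8 and 10 on EH 3, against 4 to 6 on each EL microarray and 3 to 5 on each P2 microarray. Their summed signal was 2054, 2074, 2341 and 2271 for EL, 5326, 4447, 11761 and 10939 for EH, 901, 1004, 1905 and 2272 for PL, and 1568, 1804, 1677 and 2431 for PH, with Egfl7 as most abundant gene. Samples 6 and 8 of EH thus held the highest endothelial signal. Values without these 2 microarrays are given for several of the genes called in EH. At P2, Cdh5, Tie1, Tek, Emcn, Esam and Erg were well above background on 0 of 8 microarrays, whereas Kdr, Egfl7 and Nfatc1 were well above background on all 8. Sample 6 stood apart in blood cell markers as well. The sum of 8 leukocyte genes, with Csf1r highest by its mean, though not on each microarray, was 690.2, 586, 2318 and 593 for EL, 1428, 1122, 10481 and 2110 for EH, and from 225 to 397 at P2, and 2 of them were called higher in EH than in EL. The sum of 5 erythroid genes, with Hba-a1 as most abundant gene, was 30390.3 for EL 6 and 33978 for EH 6, at most 17589.8 on the other E15.5 microarrays, and from 246 to 874 at P2.

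To show the regulatory sequence of genes the results turn on, the 250 bases before the start of transcription are given for Robo4 and Plxnd1, which had the largest differences between the stages in their response to the sort, and for Epha4 and Slit3, which were higher in the ITGA6high fraction at both stages. They come from RefSeq (build GRCm38.p6), are written 5′ to 3′ along the gene, and lie at chr9:37401722-37401971 (plus strand), chr6:115995006-115995255 (minus strand), chr1:77515089-77515338 (minus strand) and chr11:35121206-35121455 (plus strand). Capitals mark matches to AGGTCA, the half-site of many nuclear receptors, on either strand.
Robo4: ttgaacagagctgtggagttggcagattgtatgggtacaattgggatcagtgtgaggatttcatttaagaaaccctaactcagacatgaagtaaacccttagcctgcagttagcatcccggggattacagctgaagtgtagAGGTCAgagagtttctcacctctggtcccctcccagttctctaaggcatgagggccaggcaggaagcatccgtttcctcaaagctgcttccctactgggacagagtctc
Plxnd1: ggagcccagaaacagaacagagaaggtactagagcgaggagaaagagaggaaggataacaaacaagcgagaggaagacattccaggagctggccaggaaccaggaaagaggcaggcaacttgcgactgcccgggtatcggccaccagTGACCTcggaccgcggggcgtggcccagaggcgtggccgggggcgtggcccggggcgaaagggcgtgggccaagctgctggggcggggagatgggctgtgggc
Epha4: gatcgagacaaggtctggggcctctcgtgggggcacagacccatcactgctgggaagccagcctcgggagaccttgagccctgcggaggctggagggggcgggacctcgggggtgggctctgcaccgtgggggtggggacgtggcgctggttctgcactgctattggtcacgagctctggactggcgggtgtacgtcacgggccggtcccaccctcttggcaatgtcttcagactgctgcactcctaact
Slit3: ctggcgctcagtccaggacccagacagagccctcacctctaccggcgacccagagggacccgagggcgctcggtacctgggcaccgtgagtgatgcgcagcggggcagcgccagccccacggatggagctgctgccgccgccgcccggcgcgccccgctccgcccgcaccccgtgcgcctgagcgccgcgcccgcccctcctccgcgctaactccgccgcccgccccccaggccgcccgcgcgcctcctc
Motifs of 6 letters were searched on both strands, AGGTCA, the ETS core GGAAGT and the T-box half-site AGGTGT, which cannot occupy the same 6 bases. AGGTCA was found once in Robo4, at bases -109 to -104 from the start, and once in Plxnd1, on the other strand at bases -103 to -98. None of the 3 was found in the windows of Epha4 and Slit3. The window of Slit3 held 78.8% G or C, that of Plxnd1 64.8% and that of Robo4 49.6%. Among all 32851 RefSeq windows of the same length, 14.0% held AGGTCA, 19.7% GGAAGT and 11.8% AGGTGT. RefSeq gave 73 windows for 57 of the 66 guidance genes, of which 13.7%, 17.8% and 9.6% held the same motifs. The windows of the guidance genes were thus not richer in these letters than windows at large, and a match is a description of the sequence only.

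Most guidance genes were detected in the sorted CMs. In total, 51 of the 66 genes were detected in at least 1 group, 32 were well above background on all 16 microarrays and 10 on none. Another 5 were well above background on some microarrays but on no whole group. All 8 ephrins and 8 of 9 plexins were detected in at least 1 group, as were 16 of 20 semaphorins, 10 of 14 Eph receptors, 5 of 8 netrins and Unc5 receptors, and 4 of 7 Slits and Robos. The number was higher at E15.5, with 45 genes detected in EL and 47 in EH, than at P2, where PL had 36 and PH 37. The share of all probes well above background was 38.9% to 41.0% for EL and 40.9% to 46.5% for EH, against 35.7% to 39.8% for PL and 37.0% to 40.6% for PH. This share counts every probe on single microarrays, whereas the gene counts need 4 microarrays at the brightest probe. The stage gap of the guidance genes can therefore not be judged against it. Semaphorins accounted for the largest part of the gap in guidance genes, with 13 (EL) and 14 (EH) against 9 (PL) and 10 (PH). Eph receptors numbered 10 and 10 against 7 and 8, and Slits and Robos 3 and 3 against 2 and 1.

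**Figure D1:**
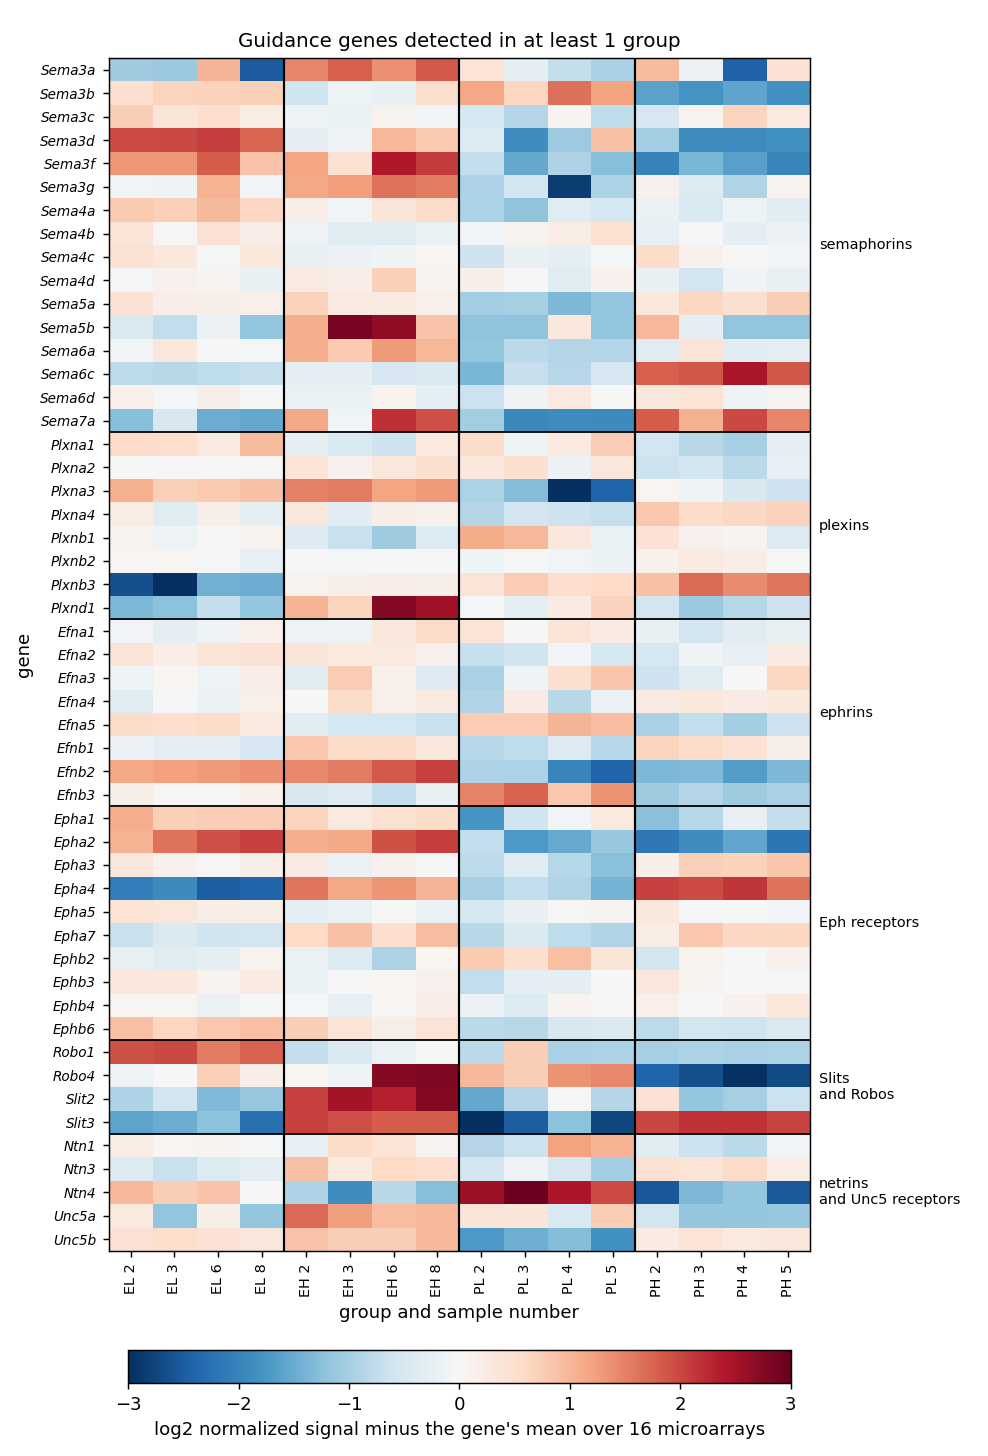
Log2 normalized signal of the 51 guidance genes detected in at least 1 group (rows, by family) on the 16 microarrays (columns, group and sample number), as the difference from the gene's mean over all microarrays. Epha4 and Slit3 are red in EH and PH and blue in EL and PL, Robo4 and Plxnd1 are the deepest red in samples 6 and 8 of EH, and Epha2 and Efnb2 are blue in all 8 microarrays of P2.

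Plxnb2, Sema4c and Ephb3 were called in none of the comparisons. Plexin B2, a receptor of class 4 semaphorins, had a mean signal of 4281 ± 383 for EL, 4382 ± 60.0 for EH, 4143 ± 249 for PL and 4923 ± 417 for PH (SD, n = 4). Its log2 difference between fractions was 0.04 ± 0.08 (SE) at E15.5 and 0.25 ± 0.08 at P2. Sema4c, a membrane-bound semaphorin that binds plexin B2, was 4883 ± 699 for EL, 3756 ± 329 for EH, 3356 ± 565 for PL and 4569 ± 937 for PH, and Ephb3, a receptor of B-type ephrins, 3099.7 ± 224, 2587 ± 241, 2111 ± 433 and 2792 ± 354. Between PL and EL both were lower by less than 3-fold, with adjusted p = 0.0237 for Sema4c and 0.00812 for Ephb3 (limma).

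The comparison of EH with EL asked how guidance genes differ between the ITGA6 fractions of the embryonic heart. Of the 66 genes, 9 were called higher in EH and 2 lower. Among all gene names 1.81% were called higher and 0.61% lower. Without the 3-fold limit 14 were higher and 7 lower, against 6.65% and 5.23% of all gene names. The median log2 fold-change of the 66 genes was 0.11 and that of all gene names -0.02. The genes higher in EH were Epha4, Slit2, Slit3, Sema5b, Sema7a, Plxnb3, Plxnc1, Plxnd1 and Unc5a, and those lower were Robo1 and Ntn4. Sema3a and Sema3g are named here after their values were seen. The second Sema3a probe was called higher in EH (2.38, adjusted p = 0.000358, limma), while the probe used was not (2.53, adjusted p = 0.0502). The second Sema3g probe was called as well (2.09, adjusted p = 0.0167), and the second Plxnc1 probe was not (0.31). When EH 6 and EH 8 were left out, 7 of the guidance genes were called higher and 2 lower, and Plxnc1 and Sema5b lost their call. For Sema5b, not well above background in EL, the fitted log2 difference was 2.59 without them (adjusted p = 0.0551, limma) and 2.49 with all microarrays. With normexp background correction the counts were 4 and 0, and the genes that kept a call were Epha4, Slit2, Slit3 and Plxnd1. Without the 3-fold limit, normexp gave 18 higher and 9 lower. Summed epicardial signals were 3087 to 4209 for EL and 1008 to 2760 for EH. Summed fibroblast and mesenchymal signals were 12838 to 22365 for EL and 5442 to 10467 for EH. Between these fractions, 1 of 8 epicardial and 0 of 9 fibroblast genes were called lower in EH, and 0 of either list higher. The part of these cells in the E15.5 results was not tested.

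At P2 the same comparison of PH with PL gave 7 genes higher and 5 lower, against 2.36% and 1.22% of all gene names. Without the 3-fold limit, 13 were higher and 10 lower, against 9.03% and 7.26%. The median log2 fold-change was 0.07 for the 66 genes and -0.00 for all gene names. Epha4, Slit3 and Sema7a were called higher and Ntn4 lower at both stages. The other genes higher in PH were Sema5a, Sema6c, Plxna3 and Unc5b, and the other genes lower in PH were Robo4, Sema3b, Efna5 and Efnb3. At P2 the summed endothelial signal ranged from 901 to 2272 for PL and from 1568 to 2431 for PH, and 0 of the 12 endothelial genes were called between these fractions. Of 8 epicardial genes, 2 were called higher in PH and 0 lower. Of 9 fibroblast and mesenchymal genes 1 was called lower in PH, as was 1 of 6 smooth muscle and pericyte genes, and 0 of either list higher. The part of these cells in the P2 results was not tested. With normexp the counts of guidance genes higher and lower in PH were 4 and 3, and Efna5, Ntn4, Plxna3, Sema5a and Sema7a lost their call. Without the 3-fold limit, normexp gave 20 higher and 13 lower.

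**Figure D2:**
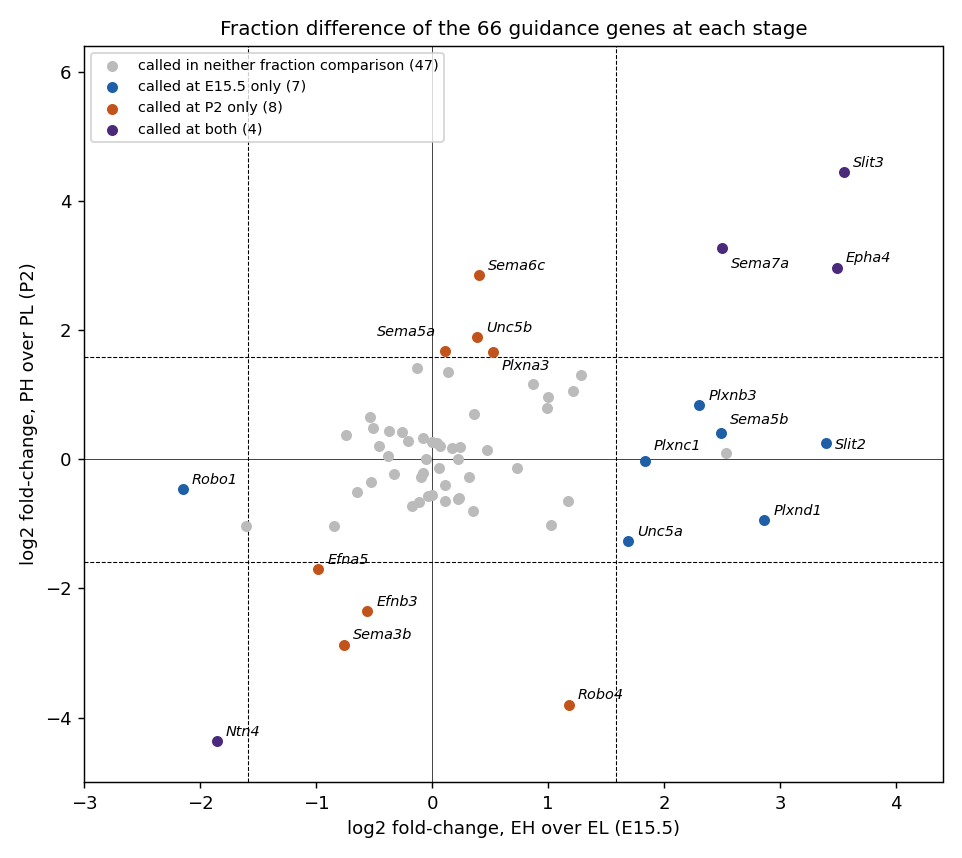
Log2 fold-change between the ITGA6 fractions at E15.5 (EH over EL, x axis) and at P2 (PH over PL, y axis) of the 66 guidance genes, with dashed lines at 3-fold. Of the genes called, 4 were called at both stages, 7 at E15.5 only and 8 at P2 only, and 47 were called at neither.

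Among the Eph receptors and ephrins, the receptor EphA4, which binds ephrins of both types, differed most between the fractions. The signal of Epha4 was 65.7, 72.7, 49.7 and 52.3 for EL and 841, 615, 684 and 559 for EH. It was 138, 163, 146 and 103 for PL and 1146, 1063, 1220.0 and 845 for PH. At both stages every ITGA6high sample lay above every ITGA6low sample. The log2 fold-change was 3.49 ± 0.18 (SE) at E15.5 (adjusted p = 8.03e-08, limma) and 2.97 ± 0.18 at P2 (adjusted p = 8.42e-08). It was 3.60 without EH 6 and EH 8, and 3.495 and 3.51 within the 2 slides of the E15.5 microarrays. Epha7, a related receptor named here after its values were seen, was higher by less than 3-fold at both stages, with log2 fold-changes of 1.29 ± 0.14 at E15.5 (adjusted p = 4.28e-05, limma) and 1.30 ± 0.14 at P2 (adjusted p = 1.89e-05). Of the other 12 Eph receptors, 0 were called between the fractions of either stage.

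Ephrins are the membrane-bound ligands of these receptors. Efnb3, of the transmembrane B type, had signals of 2880.0, 2609, 2622 and 2819 for EL and 1819, 1947, 1529 and 2174 for EH. At P2 it was 7196, 8674, 4454 and 6478 for PL and 1216, 1388, 1209 and 1287 for PH. The fractions did not overlap at either stage, and PL was the highest of the 4 groups. The log2 fold-change of PH over PL was -2.36 ± 0.16 (SE, adjusted p = 3.07e-07, limma), and that of EH over EL, -0.56, did not pass the adjusted p. Efna5, which is anchored to the membrane by a lipid, was 849.7, 812, 838 and 709 for EL, 466, 402, 402 and 360.2 for EH, 982, 979, 1159 and 1103 for PL, and 292, 345, 286 and 377 for PH. It was lower in every ITGA6high sample at both stages. On the log2 scale the change was -0.98 ± 0.11 at E15.5 (adjusted p = 4.77e-05), which is less than 3-fold, and -1.71 ± 0.11 at P2 (adjusted p = 1.36e-07). Efnb1, named here after its values were seen, went the other way by less than 3-fold, with log2 fold-changes of 0.87 ± 0.14 at E15.5 (adjusted p = 0.00100) and 1.17 ± 0.14 at P2 (adjusted p = 4.52e-05).

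**Figure D3:**
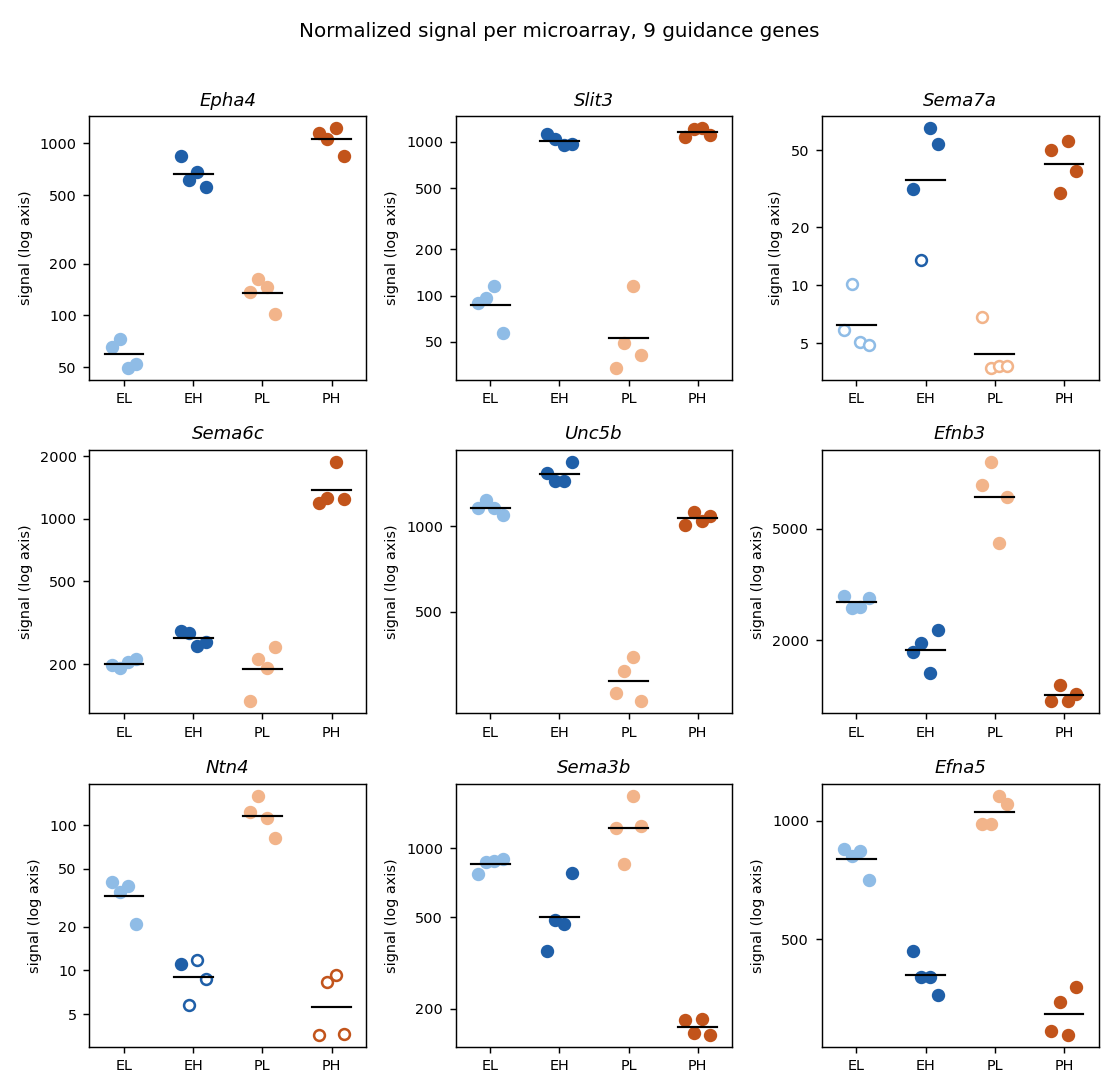
Normalized signal (log axis) of 9 guidance genes on each microarray of the 4 groups. Filled points were well above background, open points were not, and lines show the means of log2 values. Epha4, Slit3 and Sema7a are higher in EH and PH, Sema6c stands out in PH, Unc5b is low in PL, and Efnb3, Ntn4, Sema3b and Efna5 have their highest mean in PL.

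Slits are secreted cues and Robos their receptors. Slit3 had signals of 90.1, 96.1, 115 and 57.4 for EL and 1128, 1039, 949 and 961 for EH. At P2 it was 34.0, 48.9, 115 and 40.9 for PL and 1078, 1214, 1221 and 1099 for PH. Every ITGA6high sample lay far above every ITGA6low sample at both stages, and sample 4 was the highest of PL, as it was for the summed atrial signal, with 51042 against 11433 to 24298 for the other PL samples. The log2 fold-change was 3.55 ± 0.30 (SE) at E15.5 (adjusted p = 5.12e-06, limma) and 4.45 ± 0.30 at P2 (adjusted p = 2.73e-07), the largest increase among the guidance genes at each stage. Slit2 was 135, 183, 162 and 219 for EH and 16.9, 22.1, 13.0 and 14.8 for EL, with 2 of the 4 EL signals well above background. In PL it was 11.3, 17.7, 31.1 and 17.5, and in PH 44.1, 14.6, 16.3 and 20.6, with 1 microarray of each group well above background. Slit2 was thus high in EH and near background in the other groups. Its log2 fold-change was 3.39 ± 0.35 at E15.5 (adjusted p = 2.72e-05), 3.26 without EH 6 and EH 8, 1.61 with normexp, and 0.25 ± 0.35 at P2. Unlike Slit2 and Slit3, Robo1 was highest in EL, with 25.7, 27.3, 20.3 and 23.6, and stood well above background on 0 of the 12 EH, PL and PH microarrays. It was at least 2.05-fold higher in EL than in EH (adjusted p = 0.000419). That call was lost with normexp (-0.42) and with signals raised to a floor (-1.04). Both values missed the 3-fold limit but passed the adjusted p (0.000534 and 0.00136, limma). The other probe for Robo1 never stood well above background and was not called.

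Robo4, a member of the Robo family known from endothelial cells, had signals of 103, 113, 186 and 130.4 for EL and 118, 103, 768 and 790.4 for EH. At P2 it was 224, 190.0, 291 and 309 for PL and 21.6, 18.5, 14.5 and 17.7 for PH. In EH, samples 2 and 3 lay within the range of EL and samples 6 and 8 lay far above it. In PH, only sample 2 was well above background, and every PH sample lay below every sample of the other groups. On the log2 scale the change was 1.18 ± 0.58 (SE) at E15.5 (adjusted p = 0.318, limma) and -0.23 without EH 6 and EH 8. At P2 it was -3.80 ± 0.58 (adjusted p = 0.000439), and -1.86 with normexp (adjusted p = 0.00386).

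Plexin D1, a receptor of class 3 semaphorins that is also known from endothelial cells, had Plxnd1 signals of 231, 252, 362 and 263 for EL and 1199.7, 937, 4009 and 3462 for EH. At P2 they were 570.2, 485, 701 and 959 for PL and 399, 273, 328 and 386 for PH. Every EH sample lay above every sample of the other groups except for EH 3, which was slightly below PL 5, and the highest 2 were again EH 6 and EH 8. The log2 fold-change was 2.86 ± 0.41 at E15.5 (adjusted p = 0.000409), 1.96 without EH 6 and EH 8 (adjusted p = 0.00116), and -0.94 at P2, which did not pass the adjusted p. Both probes for Plxnd1, at chr6:115904829-115904888 and chr6:115905315-115905374 (mm9), were called higher in EH.

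The endothelial markers gave the following values beside these genes. Cdh5, which encodes VE-cadherin, was 3.89, 4.03, 14.4 and 4.29 for EL and 77.3, 46.0, 391 and 333 for EH, and Tie1 was 3.29, 5.89, 8.47 and 3.34 for EL and 69.2, 41.3, 275 and 219.8 for EH. Samples 6 and 8 of EH were thus highest for Cdh5 and Tie1, as they were for Robo4 and Plxnd1. Of the 12 endothelial and endocardial genes, 7 were called higher in EH than in EL and 0 lower. At P2, where Robo4 was lower in PH, Cdh5 was 5.71, 6.72, 4.61 and 4.74 for PL and 8.20, 8.01, 8.41 and 8.72 for PH, and both Cdh5 and Tie1 were well above background on 0 of 8 microarrays, whereas Kdr, Egfl7 and Nfatc1 of the same list were on all 8 and Plvap on 7. The endothelial sum of 901, 1004, 1905 and 2272 for PL was higher in samples 4 and 5, which also had the higher Robo4. The number of endothelial genes well above background ran the other way in PL, with 5, 5, 4 and 3. Cdh5, not well above background, was also lower in PL 4 and PL 5 than in PL 2 and PL 3. The part of the endothelial markers in the results of either stage was not tested.

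**Figure D4:**
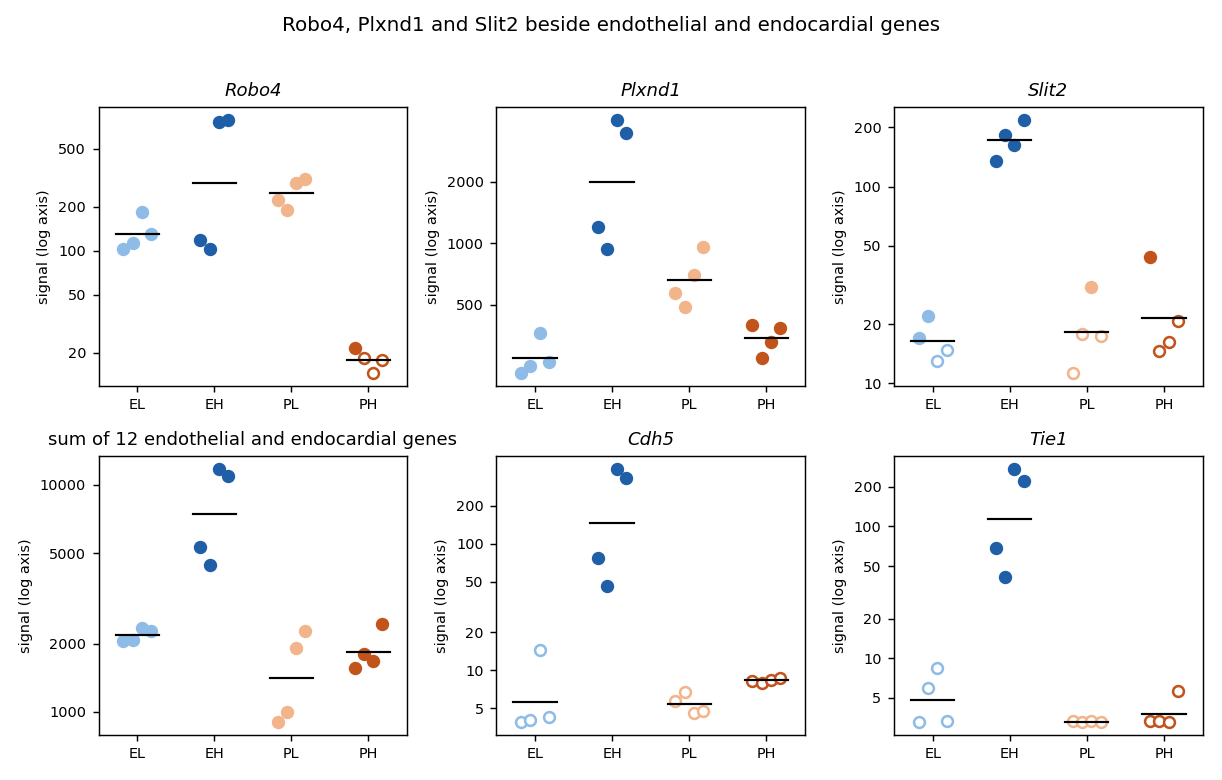
Normalized signal (log axis) of Robo4, Plxnd1 and Slit2, the summed signal of 12 endothelial and endocardial genes, and the endothelial genes Cdh5 and Tie1 on each microarray. Filled points were well above background (all points of the sum are filled), and lines show the means of log2 values. Samples 6 and 8 of EH lie highest for Robo4, Plxnd1, the sum, Cdh5 and Tie1. Samples 4 and 5 of PL lie above samples 2 and 3 for Robo4, Plxnd1 and the sum, but below them for Cdh5, where no PL point is filled.

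Among the semaphorins, Sema7a was higher in the ITGA6high fraction at both stages. Sema7a is anchored to the membrane by a lipid. Its signals were 5.88, 10.1, 5.04 and 4.92 for EL and 31.6, 13.4, 65.0 and 54.1 for EH, and 6.87, 3.73, 3.83 and 3.80 for PL and 50.2, 29.9, 55.9 and 39.0 for PH. Its signal stood well above background on 3 EH, 4 PH, 0 EL and 0 PL microarrays. The change was at least 2.39-fold at E15.5 (adjusted p = 0.00191, limma) and at least 2.20-fold at P2 (adjusted p = 0.000120). The highest EH samples were again 6 and 8, and the fitted log2 difference of EH over EL went from 2.50 to 1.73 without them (adjusted p = 0.0334). Both calls of Sema7a were lost with normexp and with signals raised to a floor. With normexp both differences passed the adjusted p (0.00237 at E15.5 and 0.000168 at P2, limma) and missed the 3-fold limit. Sema5b was 17.6, 59.2, 52.2 and 15.0 for EH and well above background on 0 microarrays of EL, at least 2.06-fold higher in EH (adjusted p = 0.0140). The call of Sema5b rested on 1 of its 3 probes, and the other 2 were not called.

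Sema6c, a transmembrane semaphorin, had signals of 198, 193, 204 and 211 for EL, 287, 283, 244 and 254 for EH, and 133, 211, 191 and 241 for PL. In PH it was 1186, 1258, 1878 and 1253. Every PH sample lay far above all other samples, and the other 3 groups lay between 133 and 287. The log2 fold-change of PH over PL was 2.85 ± 0.17 (SE, adjusted p = 8.60e-08, limma). The second probe for Sema6c, at chr3:94977179-94977238 (mm9) against chr3:94977887-94977946 for the first, also rose, with 1.57, but by less than 3-fold. Sema5a, a transmembrane semaphorin with thrombospondin repeats, was 174, 180.0, 139.9 and 159.9 for PL and 444, 555, 499.9 and 602 for PH, against 425 ± 39.1 for EL and 463 ± 80.2 for EH (SD, n = 4). PL was thus the only group with low Sema5a. The log2 fold-change at P2 was 1.68 ± 0.13 (adjusted p = 7.89e-07).

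Sema3b, a secreted semaphorin, ran in the opposite direction. It was 770.2, 869.7, 881 and 895 for EL and 358, 487, 466 and 782 for EH, where sample 8 reached the range of EL. At P2 it was 1224, 856, 1697 and 1249 for PL and 178, 157, 181 and 154 for PH. On the log2 scale the change was -0.76 ± 0.22 at E15.5 (adjusted p = 0.0474) and -2.87 ± 0.22 at P2 (adjusted p = 7.17e-07). Sema3c, a secreted semaphorin known for its role in the outflow tract, was 129, 100.4, 110.3 and 90.5 for EL, 70.2, 67.7, 83.4 and 73.9 for EH, 54.0, 42.4, 82.5 and 45.5 for PL, and 54.5, 83.6, 124 and 94.7 for PH. Its differences between the fractions, with log2 fold-changes of -0.53 ± 0.24 and 0.66 ± 0.24, did not pass the adjusted p (0.256 and 0.109, limma).

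Of the plexins, Plxnb3 was detected in all groups but EL. It was 32.2, 33.8, 34.5 and 33.9 for EH, 39.3, 50.7, 42.5 and 44.9 for PL, and 54.5, 96.6, 79.6 and 91.3 for PH. On the EL microarrays no signal stood well above background, and the change of EH over EL was at least 2.30-fold (adjusted p = 0.000211, limma). Plxna3, a receptor of the class 3 semaphorins together with neuropilins, was 29.4, 23.0, 6.26 and 10.6 for PL and 58.7, 52.4, 40.5 and 36.4 for PH, with a log2 fold-change of 1.67 ± 0.37 (adjusted p = 0.00800). That call was lost when PL 4, PL 5 or PH 2 was left out, with normexp (0.56) and with signals raised to a floor (0.92). The normexp and floor values passed the adjusted p (0.000413 and 0.000689, limma) and missed the 3-fold limit. Plxna2 was 237, 229, 235 and 244 for EL, 319, 259.6, 301 and 335 for EH, 298, 333, 212 and 300.3 for PL, and 153, 163, 136 and 203 for PH. PH was the lowest group for Plxna2, with no overlap with the others. Its log2 fold-change of PH over PL was -0.80 ± 0.14 (adjusted p = 0.00147), which is less than 3-fold, and that of EH over EL, 0.36 ± 0.14, did not pass the adjusted p (0.186).

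Netrin 4, a secreted protein of basement membranes, was lower in the ITGA6high fraction at both stages. Ntn4 was 40.8, 34.8, 38.0 and 20.9 for EL and 11.1, 5.75, 11.8 and 8.68 for EH, and 124, 159.7, 113 and 81.7 for PL and 3.60, 8.27, 9.31 and 3.63 for PH. The ITGA6high fractions were near background, with 1 microarray of EH and 0 of PH well above it. The log2 fold-change at E15.5 was -1.86 ± 0.36 (SE, adjusted p = 0.00437, limma), and at P2 PL was at least 7.25-fold higher than PH (adjusted p = 1.55e-06). The call at E15.5 was lost with normexp (-0.49) and with signals raised to a floor (-1.38), and the call at P2 with normexp (-1.52). These values passed the adjusted p (0.00263, 0.000455 and 3.68e-09, limma) and missed only the 3-fold limit. Unc5b, a netrin receptor, was 1162, 1240.0, 1158 and 1092 for EL, 1541, 1439, 1438 and 1681 for EH, 259, 310.5, 347 and 243 for PL, and 1012, 1122, 1046 and 1083 for PH. PL was about as far below PH as it was below EL, and no group overlapped with it. The log2 fold-change of PH over PL was 1.89 ± 0.10 (adjusted p = 2.76e-08), whereas that of EH over EL was 0.39 ± 0.10 (adjusted p = 0.0287). Unc5a was detected in EH alone, with 24.8, 18.3, 14.5 and 15.1. It was at least 1.21-fold higher than in EL (adjusted p = 0.00889), and lost its call when EL 3, EL 8 or EH 2 was left out, with normexp and with the floor.

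Whether the fraction difference itself changed between the stages was tested as the interaction, the log2 fold-change of PH over PL minus that of EH over EL. It was called higher for 1 of the 66 genes and lower for 7, against 0.837% and 0.935% of all gene names. Without the 3-fold limit 6 were higher and 9 lower, against 2.7% and 2.14%. The gene with the higher value was Sema6c (2.45 ± 0.24, SE, adjusted p = 7.90e-05, limma), whose second probe was not called (1.49, adjusted p = 0.0840). The lower values belonged to Robo4 (-4.98 ± 0.82, adjusted p = 0.00373) and Plxnd1 (-3.80 ± 0.57, adjusted p = 0.00204). Further lower values were found for Slit2 (-3.15 ± 0.49, adjusted p = 0.00272), Sema3b (-2.11) and Efnb3 (-1.80). The fitted values of Unc5a (-2.95) and Ntn4 (-2.51) rest on signals near background, since Unc5a stood well above it on 0 of the 12 EL, PL and PH microarrays and Ntn4 on 1 EH and 0 PH microarrays. Both lost the call with normexp (-0.50 and -1.03) and with signals raised to a floor (-0.55 and -1.48). The other 6 genes kept the call under both, with normexp values of -2.81 for Robo4, -3.49 for Plxnd1 and -1.66 for Slit2, which was near background outside EH. Without EH 6 and EH 8, the values were -3.57 for Robo4 and -2.90 for Plxnd1, both still called. Ntn4 lost its call without them, with a fitted value of -2.34 (adjusted p = 0.0818, limma) against -2.51. Unc5b (1.502 ± 0.14, adjusted p = 5.83e-05) and Sema5a (1.57 ± 0.18, adjusted p = 0.000271) passed the adjusted p but lay below 3-fold. For Epha4 and Slit3 the interaction was -0.52 and 0.90 and did not pass the adjusted p. By the same rule 4 of the 12 endothelial genes had a lower interaction and 0 a higher one (median -2.15), 3 of the 8 epicardial genes had a higher one and 0 a lower one (median 2.37), 2 of the 6 atrial genes had a higher one, and 3 of the 4 ventricular genes a lower one (median -2.42). Of the 8 leukocyte genes 1 had a lower interaction and 0 a higher one (median -2.28), and of the 5 erythroid genes none was called (median -1.62). The part of these cell types in the interactions of the guidance genes was not tested.

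The change from E15.5 to P2 was compared within each fraction. All P2 microarrays lay on a slide of their own, and only the P2 cells were depleted of non-myocytes, so that stage, slide and cell preparation cannot be told apart. In the ITGA6low fraction, 3 guidance genes were called higher in PL than in EL and 8 lower, against 1.84% and 3.23% of all gene names. Without the 3-fold limit these were 8 and 22, against 12.4% and 14.3%. In the ITGA6high fraction, 1 gene was called higher in PH than in EH and 14 lower, against 1.46% and 3.38% of all gene names. Without the limit they were 5 and 22, against 11.8% and 12.2%. The median log2 fold-change of the 66 genes was -0.12 in the ITGA6low and -0.39 in the ITGA6high fraction, and that of all gene names 0.01 and 0.02. Without EH 6 and EH 8, 10 genes were called lower in PH than in EH. With normexp, 0 genes were called higher and 1 lower in PL, and 1 higher and 3 lower in PH. The genes that kept a call were Unc5b in the ITGA6low fraction, and Sema6c, Sema3f, Plxnd1 and Robo4 in the ITGA6high fraction. Without the 3-fold limit, normexp gave 7 higher and 22 lower in PL, and 5 higher and 24 lower in PH.

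Epha2, a receptor of A-type ephrins, and Efnb2, a transmembrane ephrin known from arterial vessels, were lower at P2 in both fractions. The 3-fold limit was missed by both genes in both fractions with normexp, where the log2 fold-changes were -1.51 and -1.44 for Epha2 and -1.07 and -1.26 for Efnb2, all past the adjusted p. Epha2 was 114, 169, 209 and 230.0 for EL, 117, 121, 205 and 232 for EH, 33.1, 16.7, 19.2 and 25.1 for PL, and 12.6, 15.1, 18.6 and 12.3 for PH. Every P2 sample lay below every E15.5 sample. The log2 fold-change of PL over EL was -2.94 ± 0.29 (SE, adjusted p = 5.86e-06, limma), and EH was at least 9.62-fold higher than PH (adjusted p = 1.68e-06). Efnb2 was 101.2, 106, 109 and 117 for EL, 124, 135, 162 and 187 for EH, 24.1, 23.7, 11.6 and 8.65 for PL, and 17.8, 18.3, 14.3 and 17.97 for PH. Here too the stages did not overlap. The log2 fold-change of PL over EL was -2.81 ± 0.28 (adjusted p = 5.78e-06), and EH was at least 8.35-fold higher than PH (adjusted p = 2.75e-06).

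Of the 7 class 3 semaphorins, which are secreted, Sema3d and Sema3f were called lower at P2 in both fractions, Sema3b and Sema3g in the ITGA6high fraction alone, and Sema3a, Sema3c and Sema3e in neither. The second Sema3a probe was called lower in PH, where none of its signals stood well above background, than in EH (adjusted p = 0.000253, limma). Sema3a was also called lower there when only detected probes were used. The second Sema3g probe was not called there (-1.21, adjusted p = 0.123), and the call of Sema3g was lost when PH 4 was left out. Without EH 6 and EH 8, Sema3b, Sema3d and Sema3g lost their call in the ITGA6high fraction. The log2 fold-change of Sema3b was then -1.32 (adjusted p = 0.00170, limma), against -1.59 with all microarrays, which lay at the 3-fold limit. Its call was also lost after scaling to the 75th percentile, with normexp, and when EH 8, PH 3 or PH 5 alone was left out. Sema3f was 185, 184, 265 and 137 for EL, 169.8, 104, 397 and 324 for EH, 45.2, 25.9, 39.5 and 31.2 for PL, and 18.6, 29.1, 24.5 and 19.4 for PH. The stages did not overlap, and EH 6 and EH 8 were again the highest samples. The log2 fold-change was -2.44 ± 0.36 in the ITGA6low (adjusted p = 0.000219) and -3.28 ± 0.36 in the ITGA6high fraction (adjusted p = 2.18e-05), or -2.56 without EH 6 and EH 8. Sema3d was 58.9, 59.9, 63.7 and 51.0 for EL and 12.3, 13.9, 30.2 and 26.01 for EH, and was well above background on 0 microarrays of PL and PH. EL was at least 2.87-fold higher than PL (adjusted p = 0.00123). With normexp Sema3f kept its call in the ITGA6high fraction alone, and Sema3d lost both calls with normexp and with signals raised to a floor. Sema4g, of class 4, was called lower at P2 in both fractions, with EH at least 1.11-fold higher than PH. Both calls of Sema4g were lost with only detected probes, with normexp and with signals raised to a floor. The other class 3 genes and Sema4g are named here after their values were seen, and Sema4g stood well above background on 1 EL, 3 EH and 0 P2 microarrays.

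Several genes described above also changed with stage. Plxna3 was lower in PL than in EL by a log2 fold-change of -2.81 ± 0.37 (adjusted p = 7.66e-05, limma) and in PH than in EH by -1.67 ± 0.37 (adjusted p = 0.00556), with a call in each fraction. In PL, 2 of 4 Plxna3 signals stood well above background, and with signals raised to a floor the first value was -2.07. The call in PH was lost when PH 5 was left out, and both calls were lost with normexp (-1.10 and -0.92). Unc5b was called lower in PL, with -2.02 ± 0.10 (adjusted p = 1.54e-08), and in PH it was lower by less than 3-fold, with -0.51 ± 0.10 (adjusted p = 0.00230). Robo4 in the ITGA6high fraction was lower by -4.03 ± 0.58 (adjusted p = 0.000199), and Slit2 by -2.998 ± 0.35 (adjusted p = 3.36e-05). Both kept this call without EH 6 and EH 8, and with normexp Robo4 kept it (-2.15) and Slit2 did not (-1.55). Higher at P2 were Ntn4 in the ITGA6low fraction, with 1.83 ± 0.36 (adjusted p = 0.00190), Plxnb3, with PL at least 3.02-fold above EL (adjusted p = 1.80e-05), and Sema6c in the ITGA6high fraction, with 2.36 ± 0.17 (adjusted p = 5.62e-07). Sema6b, named here after its values were seen, was the third gene called higher in PL, with 1 of 4 microarrays well above background. Its call was lost when EL 8 or PL 2 was left out, with only detected probes, with normexp and with signals raised to a floor.

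Markers of non-myocytes moved with the stage. Of 9 fibroblast and mesenchymal genes, 6 were called lower in PL than in EL and 8 lower in PH than in EH. Their sum, with Col1a2 as most abundant gene, was 22365, 12838, 18903 and 14589.7 for EL, 10038, 5442, 10467 and 9484 for EH, 1633, 775, 526 and 672 for PL, and 597, 767, 804 and 549.5 for PH. All 8 epicardial genes were called lower in PL and 6 in PH, and their sum, with Msln highest by its mean, though not on each microarray, was 3299.5, 3087, 4209 and 3225 for EL, 1494, 1008, 2760.5 and 2077 for EH, 197, 102, 57.4 and 85.1 for PL, and 195, 180.2, 250.3 and 155 for PH. Both sums were lower in all P2 samples than in all E15.5 samples. Of the 12 endothelial genes, 1 was called lower in PL and 8 in PH, and of 8 leukocyte genes 3 and 7. At P2, Pdgfra and Tcf21 of the fibroblast list and Upk3b, Upk1b and Lrrn4 of the epicardial list were well above background on 0 microarrays. Dpt of the fibroblast list was well above background on 0 microarrays of either stage, so its absence at P2 shows no change with stage. Of 6 smooth muscle and pericyte genes 2 were called lower in PL and 3 in PH, and of 5 erythroid genes 2 and 3, while 0 of 9 neural and Schwann cell genes were called in either stage comparison or between the fractions. The part of these cells in the stage differences was not tested.

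**Figure D5:**
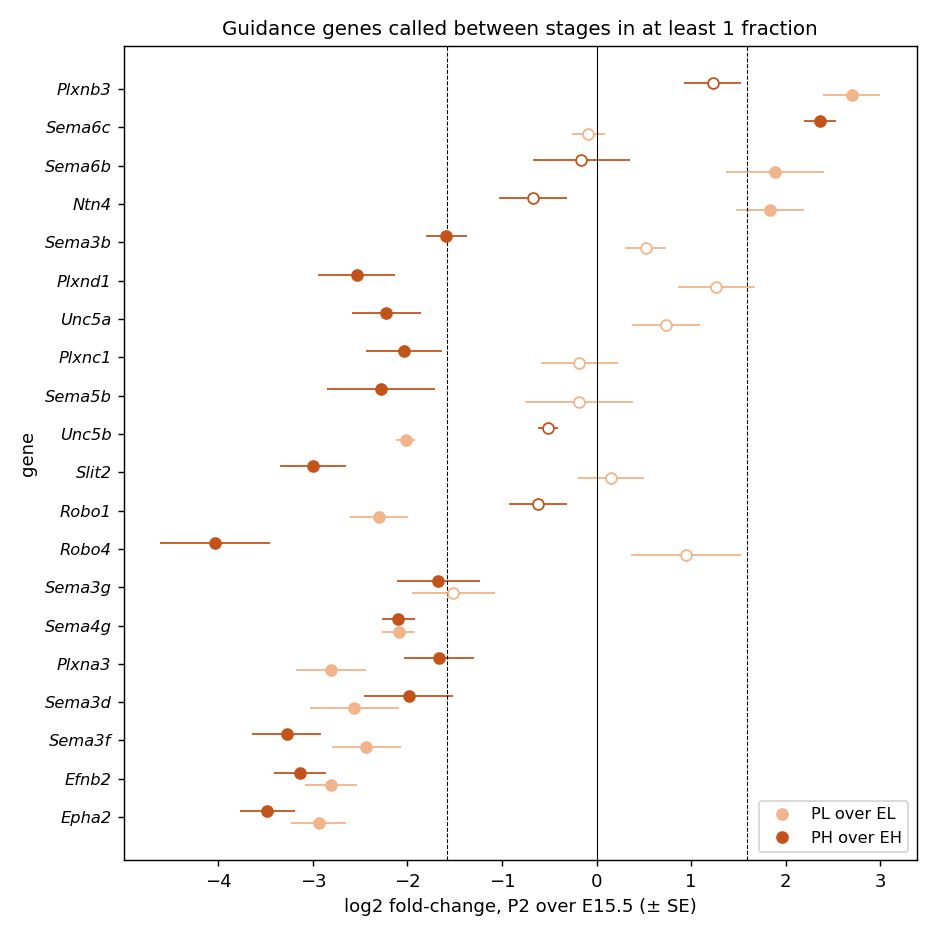
Log2 fold-change (± SE) from E15.5 to P2 in the ITGA6low fraction (PL over EL, light) and in the ITGA6high fraction (PH over EH, dark) of the 20 guidance genes called in at least 1 of both. Filled points were called, open points were not, and dashed lines show 3-fold. Epha2, Efnb2, Sema3f, Sema3d, Plxna3 and Sema4g lie left of the line in both fractions.

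The molecules downstream of these receptors were looked at through a list of 73 effectors and co-receptors. Of these, 5 were called higher in EH and 0 in EL, and 7 were called higher in PH and 1 in PL. The shares of all gene names were 1.81% and 0.61% at E15.5 and 2.36% and 1.22% at P2. From E15.5 to P2, 4 were higher and 8 lower in the ITGA6low fraction, and 1 was higher and 9 lower in the ITGA6high fraction, against 1.84% and 3.23%, and 1.46% and 3.38%, of all gene names. The median log2 fold-change was 0.07 at E15.5 and 0.07 at P2 between the fractions, and -0.27 and -0.14 between the stages. The following genes of the list are named after their values were seen. Nrp2, a co-receptor of the class 3 semaphorins, was 138, 138, 195 and 119 for EL and 320.2, 199, 1043 and 924 for EH, with EH 6 and EH 8 highest, and was called higher in PH as well. Lrrc4c, the receptor of netrin G1, stood well above background on every EH and PH microarray and on 0 of the 8 EL and PL microarrays.

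Of 5 genes for collapsin response mediator proteins, which act downstream of semaphorins on the cytoskeleton, 1 was called higher in PH than in PL, 1 lower and 3 neither. Dpysl2 was 231, 236, 284 and 243 for PL and 1236, 857, 1286 and 1366 for PH, against 988 ± 77.1 for EL and 1063 ± 86.4 for EH (SD, n = 4). Dpysl4 ran the other way, with 169.5, 119, 183 and 177 for PL and 39.7, 27.5, 36.0 and 47.8 for PH. On the log2 scale the change was 2.24 for Dpysl2 (adjusted p = 6.28e-08, limma) and -2.11 for Dpysl4 (adjusted p = 7.50e-06), and the interaction was called for both. Flrt1, of a family of membrane proteins that bind Unc5 receptors, was 58.3, 63.5, 86.8 and 71.0 for PL and 409, 299, 364 and 371 for PH (adjusted p = 3.83e-07). Srgap1, a GTPase-activating protein of the Robo pathway, was 439 ± 59.0 for EL, 790.2 ± 31.7 for EH, 475 ± 9.39 for PL and 197 ± 50.3 for PH (SD, n = 4), and its interaction was -2.16 (adjusted p = 4.72e-05).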

How the data were processed

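RNA of 4 groups of sorted mouse CMs was measured on 16 one-color Agilent microarrays, each hybridized with Cy3-labeled cRNA amplified from 10 ng RNA. The authors deposited scanner output of Agilent Feature Extraction 10.7.3.1, in which the processed signal intensity of each spot is already background-subtracted, and also their quantile-normalized log2 values, an alternative here. The depth of a microarray is not defined, and their number limits the precision. The build of the probe positions is mm9.

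Outlier spots were left out, spots averaged per probe, and the 55681 probes were quantile normalized and log2-transformed, following the methods. Group means were fitted with limma 3.58.1 in R 4.3.3 over all 16 microarrays, without slide or sample number as a term, and checked on simulated data. The methods' test was an analysis of variance with a Tukey test. P-values measure the spread between pooled-heart samples. Deviations from the group means of same-numbered EL and EH samples correlated with r = 0.255, 0.189, 0.450 and 0.379. Those of same-numbered PL and PH samples correlated with r = 0.375, 0.176, -0.0305 and 0.542. In an alternative, same-numbered samples of both stages were treated as pairs, although those of P2 number 4 did not correlate.

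The guidance genes, the lists and the tests were chosen with earlier results of these data known. Named were genes called between fractions with the brighter group detected, the gene with the highest mean signal of each family, Robo4, Sema3c and Plxna2, and the 3 largest interactions in each direction among genes well above background on all 16 microarrays. Also named were the 5 largest called stage changes in each direction within each fraction, where the brighter group was detected. All 66 names are RefSeq symbols. Plots used matplotlib 3.10.9 and pandas 2.3.3 (Python 3.11.15). Lists covered atrial, ventricular and pan-cardiomyocyte, endothelial, fibroblast, smooth muscle, epicardial, leukocyte, erythroid and neural genes.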

Additional observations from a re-analysis of the deposited data

Results flagged for a closer look

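For 8 genes the difference between the ITGA6 fractions itself differed between the stages in the limma interaction (log2 fold-change of PH over PL minus that of EH over EL). It was lower at P2 for Robo4 (-4.98, adjusted p = 0.00373), Plxnd1 (-3.80, adjusted p = 0.00204), Slit2 (-3.15, adjusted p = 0.00272), Unc5a (-2.95, adjusted p = 0.00501), Ntn4 (-2.51, adjusted p = 0.0144), Sema3b (-2.11, adjusted p = 0.00162) and Efnb3 (-1.80, adjusted p = 0.000598), and higher for Sema6c (2.45, adjusted p = 7.90e-05). Unc5a stood well above background in EH alone, and Ntn4 on all EL and PL but on 1 EH and 0 PH microarrays, and both lost this call with normexp (-0.50 and -1.03) and with signals raised to a floor (-0.55 and -1.48). Robo4 was the one gene of the 8 whose E15.5 difference turned from 1.18 to -0.23 without EH 6 and EH 8, while its PH samples lay below all others.

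Sema6c was 1878 in PH 4, apart from 1186 to 1258 in the other PH samples. It was the single sample this far from its group among 108 groups of 4 samples (27 genes in 4 groups), of which 92 had a microarray well above background. Chance alone gives about 1 in 20 groups.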

How the results depend on the processing

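None of the log2 fold-changes of the named genes that was called turned its direction under the alternatives run. With normexp (offset 50), the counts of genes called higher and lower were 4 and 0 in EH against EL, 4 and 3 in PH against PL, 0 and 1 in PL against EL, and 3 lower in PH against EH. In the interaction, 1 gene was higher and 5 lower with normexp, and likewise with the floor. With signals raised to a floor, EH against EL gave 5 higher and 1 lower, PL against EL 5 lower, and PH against EH 9 lower. In EH against EL, the floor took away the calls of Ntn4, Plxnb3, Plxnc1, Robo1, Sema5b, Sema7a and Unc5a. It added calls of Sema3a, higher in EH, and of Sema3d, lower in EH. Without the fold limit the counts were 14 and 7, 13 and 10, 8 and 22, and 5 and 22, and the interaction gave 6 higher. With normexp and without the fold limit, the counts of the same 4 comparisons were 18 and 9, 20 and 13, 7 and 22, and 5 and 24. The interaction gave 2 higher after scaling to the 75th percentile, with only detected probes, with slide as a fixed block and with the median over probes, and 1 to 4 when each microarray was left out in turn. The replicate block, with same-numbered samples of both stages as pairs, changed no call between the fractions or in the interaction, with 9 genes higher in EH. Slide as a random block had a consensus correlation of -0.0566. Scaling to the 75th percentile moved the median log2 fold-change of all gene names to -0.16 in EH against EL, -0.14 in PH against PL, 0.16 in PL against EL and 0.15 in PH against EH, and the median of the 66 genes in PH against PL from 0.07 to -0.00. Calls differed among probes for 5 of 24 genes with several probes in EH against EL, 2 in PH against PL, 3 in PL against EL, 6 in PH against EH and 1 in the interaction, with 0 in opposite directions. Genes near background, such as Unc5a, Sema5b, Sema4g and Robo1, are limited by signal over background. The authors' values shared every call. The causes of lost calls were not tested. Leaving out EH 6 and EH 8 was chosen after seeing the data, for their endothelial signal.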
